A study of Mus musculus with 2 samples.

Results

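The genes described here bear the symbols of cytosolic ribosomal proteins, and include paralogs and a pseudogene named below. They were chosen by symbol alone, as the gene rows named Rpl or Rps with a number and at most a short suffix, plus Rpsa, Rplp0, Rplp1 and Rplp2. The Rps6k kinase genes were left out, as were 10 other Rpl and Rps symbols in wt_colon and 15 in pdgfraegfp_colon. In all, 82 genes met this rule, 81 in each of 2 libraries that held 17809 and 15972 genes. Of the 82 members, 31 belonged to the small subunit, 43 to the large subunit and 3 to its stalk, and 5 were named as paralogs of a core member (Rpl3l, Rpl7l1, Rpl22l1, Rps4l and Rps27l). Rps4l is annotated as a transcribed processed pseudogene rather than a protein-coding gene. By symbol, all 82 were placed in GENCODE M21 on GRCm38, spread over 19 chromosomes, with 14 of them on chromosome 7.

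The libraries were single-cell RNA-seq of mouse colon. The wt_colon library came from C57BL/6 mice and combined EpCAM+CD45- epithelial cells with EpCAM-CD45- mesenchymal cells (7495 cells, version 3 chemistry). The pdgfraegfp_colon library came from Pdgfra-H2B-eGFP mice, in which a nuclear green fluorescent protein is driven from the Pdgfra locus, and held cells sorted for that fluorescence (4409 cells, version 2 chemistry). Each library pooled 3 untreated female mice aged 8–12 weeks, and cells were not traced to a mouse. There was thus 1 library per condition, no comparison between classes could be tested, and no p-value is given. Quartiles are over cells of 1 library and do not measure the spread between animals.

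A ribosome is made of a small subunit, which reads the messenger RNA, and a large subunit, which joins amino acids. The ribosomal protein genes are needed by every cell, and their products are made in near-equal amounts and assembled with ribosomal RNA in the nucleolus. Their messengers begin with a run of pyrimidines, the 5′ terminal oligopyrimidine (TOP) tract, through which their translation follows growth signals. In the colon, stem cells at the crypt base divide and their progeny stop dividing and mature into absorptive, goblet and enteroendocrine cells as they move to the crypt top. The crypts are surrounded by fibroblasts, and those of the crypt top (CTFs) are told apart here from 2 populations of the crypt bottom (CBFs1 and CBFs2).

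The start of the transcript is shown for 10 of the members named in the results below, since it is the sequence feature the family is known for. Most of these 10 held a pyrimidine word of the kind marked below, against 34.4% of all members with a window. They therefore do not represent the family. Windows held 30 bases, 10 before and 20 from the annotated start, and were read from the RefSeq promoter table on GRCm38.p6 in the sense direction. Capitals mark 4 pyrimidine words, which can overlap one another. CCTTT was the first word searched, CTTTC was the second, CTTTT was the third and CTCTT was the last.
Rplp2: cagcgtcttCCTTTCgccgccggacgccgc
Rps6: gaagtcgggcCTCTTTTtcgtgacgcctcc
Rps12: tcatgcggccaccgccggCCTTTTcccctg
Rps26: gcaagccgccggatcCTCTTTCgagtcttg
Rpl12: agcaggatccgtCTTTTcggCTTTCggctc
Rps27: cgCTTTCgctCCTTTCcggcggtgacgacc
Rps27l: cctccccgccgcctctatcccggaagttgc
Rpl22l1: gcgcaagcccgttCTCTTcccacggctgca
Rpl7l1: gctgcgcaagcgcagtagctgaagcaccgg
Rpsa: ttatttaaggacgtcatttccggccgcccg
These windows lay at chr7:141447641-141447670 on the plus strand (Rplp2), chr4:86857348-86857377 on the minus strand (Rps6), chr10:23787190-23787219 on the minus strand (Rps12), chr10:128626487-128626516 on the minus strand (Rps26) and chr2:32961702-32961731 on the plus strand (Rpl12). The others lay at chr3:90213629-90213658 on the minus strand (Rps27), chr9:66946076-66946105 on the plus strand (Rps27l, the first of its 2 annotated starts), chr3:28805498-28805527 on the plus strand (Rpl22l1), chr17:46782637-46782666 on the minus strand (Rpl7l1) and chr9:120127756-120127785 on the plus strand (Rpsa).
A window was given for 61 members, and 21 of these (34.4%) held at least 1 of the words on the sense strand, against 12.7% of the 27025 symbols in the table. On the other strand the shares were 6.56% of members and 12.5% of all symbols. The words were chosen after looking at these windows, annotated starts can be off by some bases, and the absence of a word says only that these letters were not in the window. Entries were missing for 21 members, among them Rpl3, Rpl7, Rpl8, Rpl17, Rpl21, Rpl23a, Rpl29, Rpl30, Rpl32, Rpl36, Rplp1, Rps4l, Rps14, Rps20, Rps27a and Rps29.

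Values were whole numbers taken to be corrected counts, that is, counts that the authors had adjusted to a common depth within each library. This was inferred from the study's methods and the narrow range of totals, since the tables do not name the correction. The corrected total per cell ran from 6120 to 16389 (median 8972) in wt_colon and from 2314 to 4432 (median 3150) in pdgfraegfp_colon. Members made up 17.1% of all corrected counts in wt_colon and 17.8% in pdgfraegfp_colon. Levels were not compared between the libraries, whose kits and scales differ, nor between genes. The libraries shared 1 cell barcode. Cells were grouped by clustering without the members among the genes used, and a class was named "-like" only from fixed marker lists. In wt_colon, 1617 cells carried at least 5 of 8 pan-epithelial and at least 5 of 8 pan-fibroblast genes, 545 of them among the 2504 fibroblasts and 19 among the 2360 epithelial cells, and summed ratios without them are given in the closing section.

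Among the epithelial classes of wt_colon, the summed level of the members was highest in crypt base-like cells and lowest in mature types. It averaged 2383 corrected counts per cell in the 331 crypt base-like cells (quartiles 2153 and 2623) and 1870 in the 210 dividing-like cells (1620 and 2098). It was 1567 in the 596 goblet-like cells (1297 and 1818), 1051 in the 632 enterocyte-like cells (547 and 1437) and 931 in the 81 enteroendocrine-like cells (733 and 959). The middle ranges of crypt base-like and enterocyte-like cells did not overlap, whereas those of goblet-like and enterocyte-like cells did. Mitochondrial counts were at or above 10% in 82.0% of enterocyte-like and 15.4% of goblet-like cells. Among cells under 10% the means were 1471 and 1599 in the same order. As a share of all corrected counts, members took 24.8% in crypt base-like, 19.0% in dividing-like, 15.7% in goblet-like, 10.9% in enterocyte-like and 9.37% in enteroendocrine-like cells. Crypt base-like cells carried 8 of 10 crypt base markers and were also led by DNA replication genes such as Mcm6 and Mcm3 that are active in S phase, whereas the dividing-like cluster was led by mitotic genes such as Nusap1 and Ube2c.

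Enterocyte-like cells were the most uneven of these classes and came from 3 clusters. The mean summed level was 662 in the 192 cells of the cluster led by Atp12a and Fxyd4, 1112 in the 337 cells led by Dhrs9 and Emp1, and 1574 in the 103 cells led by Slc51a and Reg3b. Both goblet-like clusters were closer to each other, at 1518 and 1613. Of 3 epithelial clusters that no marker list named, the one led by Trf, Defb45 and Fut9 had 2562 counts per cell (223 cells, 27.0% of its counts), above the crypt base-like class. The others had 2146 (126 cells led by Ptcra and Ppp1r1a) and 1810 (161 cells led by Krt36). A further 237 epithelial cells that carried fibroblast markers were kept out of these comparisons.

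**Figure D1:**
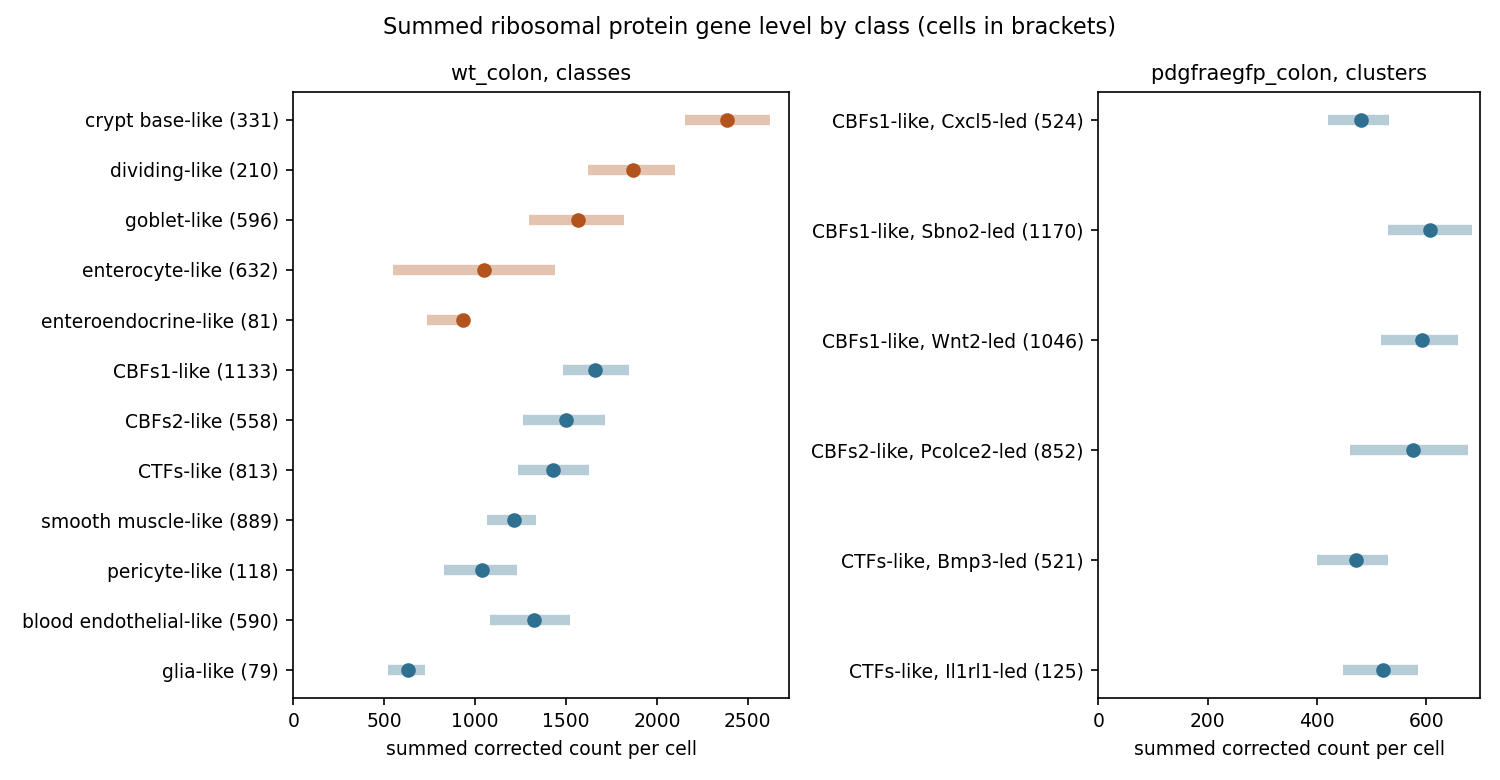
Summed corrected count of the members per cell, by class in wt_colon (left) and by fibroblast cluster in pdgfraegfp_colon (right). Points are means and bars span the quartiles over cells; the crypt base-like mean of 2383 is the highest of the classes drawn and the glia-like mean of 632 the lowest, and the horizontal scales of the panels differ.

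Epithelial cells were also ranked along the crypt axis, though not with independent genes. The 1683 epithelial cells outside the secretory classes were ranked by markers of the crypt top minus markers of the crypt base. They were split into 5 ranges of 336 or 337 cells each, which are not cell types. The 10 base markers were those of the crypt base class, and the 7 top markers were all on the enterocyte list. Crypt base-like cells made up 60.8% of the first range and enterocyte-like cells 98.5% of the last. An order similar to that of the classes was thus largely built in. Epithelial clusters that no marker list named made up 20.2%, 43.9%, 57.6%, 29.2% and 0.595% of the ranges from first to last. From the base to the top, the mean summed level was 2466, 2308, 2047, 1397 and 628 corrected counts per cell. The quartiles of the first range were 2233 and 2729, and those of the last were 423 and 781. The first range was thus 3.93-fold above the last, and the share of all corrected counts went from 25.6% to 6.44%. The mean total corrected count per cell was nearly level along the axis, at 9642 in the first and 9742 in the last range. Counts adjusted to a common depth, as these are taken to be, have near-level totals by design. The totals therefore do not show whether the original depth was level.

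Marker genes placed the ranges along the crypt. Lgr5, a stem cell receptor used for ranking, averaged 1.13 counts per cell in the first range and 0.00298 in the last, and Car4, a carbonic anhydrase of mature colonocytes also used for ranking, 0.0653 and 7.24. Mki67, a proliferation marker not used for ranking, averaged between 1.47 and 1.56 in the first 3 ranges, 0.518 in the next and 0.0804 in the last. Between the first and the third range the summed level of the members went from 2466 to 2047 and Mki67 from 1.47 to 1.56. Crypt base-like cells, whose leading genes included some active in S phase, were 60.8% of the first range and 8.01% of the third. The part of cell division in the result was not tested.

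Other values moved with the axis. The median mitochondrial share was 9.06% of counts in the first range and 13.5% in the last, the median number of genes detected was 3410 and 2822, and the sum of 10 dissociation-response genes was 87.1 and 40.9. Their part in the result was not tested. Among the cells under 10% mitochondrial counts, which numbered 202 in the first range and only 31 in the last, the means were 2558 and 790.0, a 3.24-fold difference. When only cells under 10% mitochondrial counts were ranked and split afresh, the log2 ratio of the first over the last range was 0.82, against 1.97 for all cells.

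**Figure D2:**
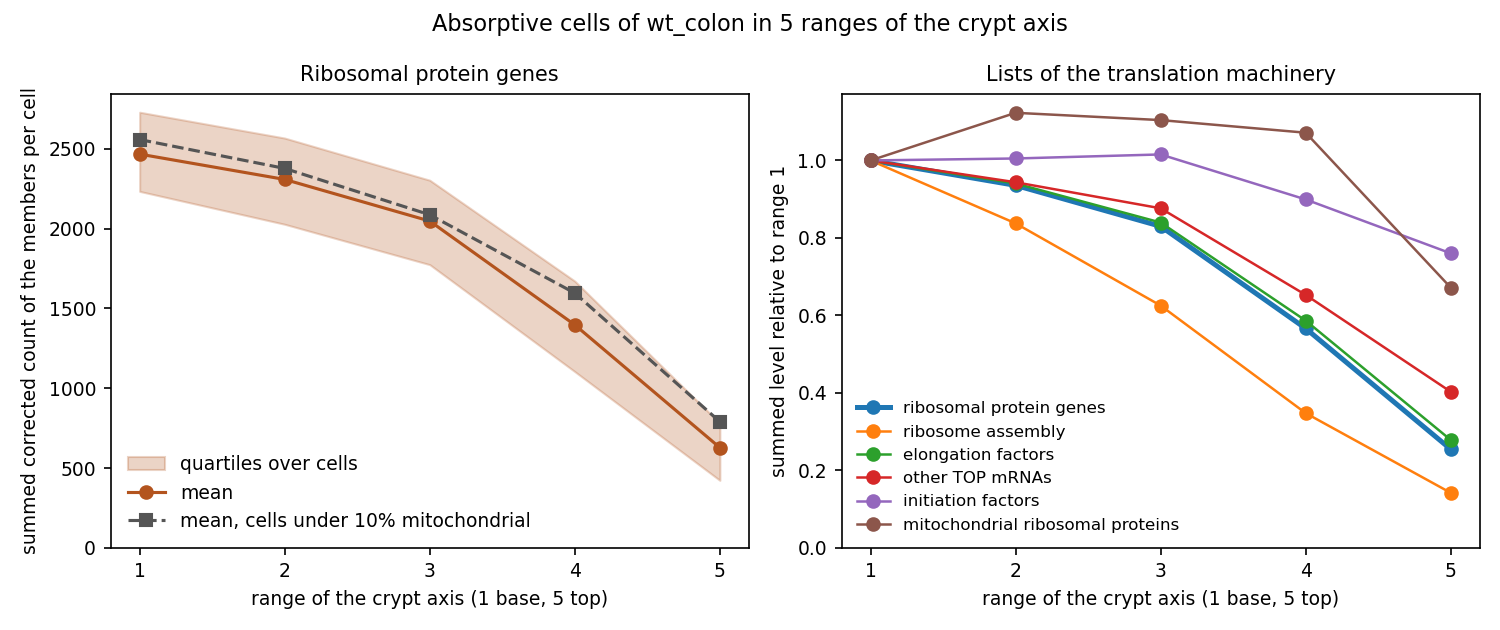
Epithelial cells of wt_colon outside the secretory classes (headed absorptive cells) in 5 ranges of the crypt axis from base (1) to top (5). The left panel gives the summed corrected count of the members per cell as the mean (2466 to 628), its quartiles over cells, and the mean over cells under 10% mitochondrial counts. The right panel gives the summed level of each list relative to range 1, and shows the members close to the elongation factors, with ribosome assembly genes lower.

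Nearly every member took part. Of 80 members with a mean of at least 0.05, all 80 were lower in the last than in the first range, and 79 were at least 1.5-fold lower, against 51.6% of the 10430 genes that passed the same filter. The median log2 ratio of first over last was 2.04 for members and 0.64 for all genes. For 76 members the level was lower in each successive range. The exceptions included Rpl9, Rpl41 and Rps27l. The shares of all genes lower in the last range by any amount, or in each successive range, are not given here.

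The size of the difference varied widely among members. Rpl12, a protein at the base of the stalk, averaged 28.0, 24.6, 19.3, 10.2 and 2.26 counts per cell from the first to the last range, a 12.4-fold difference. Rpsa, a small subunit protein also described as a laminin receptor, went from 40.9 to 5.79 (7.06-fold), and Rpl3, a core protein near the catalytic centre, from 29.7 to 3.48 (8.55-fold). At the other end, Rpl9 averaged 33.9, 32.8, 33.8, 28.8 and 18.7, a 1.81-fold difference. Rpl9 is among the members with a near-identical processed copy in the tables (Rpl9-ps6). Whether reads were split between them was not tested. Rps29 went from 40.8 to 18.5 (2.20-fold). The paralog Rps27l, known as a p53 target, averaged 4.99, 5.54, 5.56, 4.89 and 3.40, and was the one tested member below the 1.5-fold mark.

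**Figure D3:**
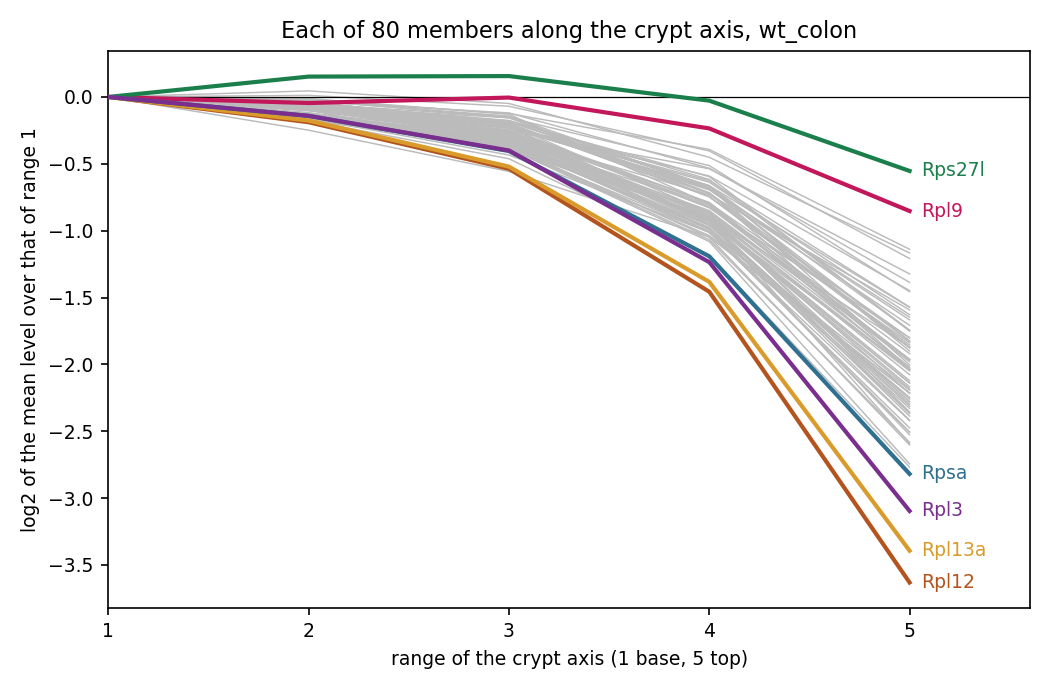
Mean level of each of 80 members along the crypt axis as the log2 ratio to range 1 in wt_colon, with 1 line per member. Rpl12 ends lowest (range 1 over range 5, log2 3.63) and Rps27l highest (0.55); grey lines are the members not labelled.

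Between the classes, the members were compared as log2 ratios of class means, and a member was counted as higher or lower at 1.5-fold or more. In crypt base-like over enterocyte-like cells 78 of 80 members were higher, against 45.5% of all genes tested, and in dividing-like over enterocyte-like cells 71 of 80, against 44%. In goblet-like over enterocyte-like cells 38 of 80 were higher, against 37.7%, a share not far above the background. No member was 1.5-fold lower in any of them, against 19.7%, 19.9% and 19% of all genes in the same order. The median log2 ratio of members was 1.22, 0.86 and 0.57, and that of all genes was 0.46, 0.42 and 0.32. These 3 comparisons share the enterocyte-like cells. The median was 1.29 for small subunit and 1.14 for large subunit members in the first, and 0.92 and 0.80 in the second. In the goblet comparison it was 0.55 for small and 0.60 for large subunit members. The summed level of dividing-like over enterocyte-like cells was below 1.5-fold among cells of low mitochondrial share. Among cells under 10% mitochondrial counts the sum averaged 1914 in 160 dividing-like and 1471 in 114 enterocyte-like cells, a log2 ratio of 0.38 against 0.83 in all cells.

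In dividing-like over enterocyte-like cells the highest ratios were those of Rpl7l1, Rpl12, Rpsa, Rpl3 and Rpl22l1. Rpl12 averaged 18.2 counts in dividing-like and 7.09 in enterocyte-like cells (log2 ratio 1.36), and Rpsa 31.6 and 12.8 (1.305). Rpl3 averaged 21.6 and 8.79 (1.298). Among the lowest 5 ratios were those of Rpl9 (25.5 and 23.0, log2 0.15), Rps29 (32.7 and 25.01, 0.39), Rps27 (21.9 and 16.3, 0.42) and Rpl31 (6.11 and 4.29, 0.51). Rps29 and Rps27 encode small zinc-binding proteins of the small subunit.

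Members with roles outside the ribosome core were in the same order of classes. Rpl5 and Rpl11, which with 5S RNA bind Mdm2 when ribosome assembly fails, averaged 16.1 and 26.0 counts in crypt base-like, 11.3 and 20.5 in dividing-like and 5.62 and 11.9 in enterocyte-like cells. Rps19, the gene most often affected in Diamond-Blackfan anaemia, averaged 41.8 in crypt base-like, 31.1 in dividing-like and 14.1 in enterocyte-like cells. Rps6, whose protein is phosphorylated downstream of mTOR, averaged 17.7, 13.7 and 6.64 in the same classes. Rps27a, made as a fusion with ubiquitin, averaged 36.7, 27.9 and 14.8. Of the stalk genes, Rplp0 averaged 51.8, 41.6 and 24.2, Rplp1 49.3, 37.4 and 25.8, and Rplp2 24.2, 20.2 and 10.3. In goblet-like cells the levels of Rpl5 (9.67), Rps19 (20.2) and the others lay between those of enterocyte-like and dividing-like cells, except Rps27a at 28.0, just above the dividing-like mean.

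The other lists of the translation machinery were read in the same comparison, where 44% of all genes tested were higher and 19.9% lower. Among 34 genes of ribosome assembly and rDNA transcription, 32 were at least 1.5-fold higher in dividing-like than enterocyte-like cells and none lower, with a median log2 ratio of 1.68. Dkc1, the pseudouridine synthase of ribosomal RNA, averaged 0.710 and 0.0965 (log2 2.88) and Gar1, its partner, 0.781 and 0.131 (2.57). At the low end were Polr1d, a subunit of RNA polymerase I and III (3.40 and 2.54, log2 0.42), and Ubtf, a factor of rDNA transcription (0.657 and 0.453, 0.54). Their summed level along the axis was 47.2, 39.5, 29.5, 16.4 and 6.70.

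Elongation factors followed the members closely. Of 6 genes, 5 were at least 1.5-fold higher in dividing-like cells, led by Eef1d (3.095 and 1.41, log2 1.13) and Eef1g (5.63 and 2.57, 1.13), subunits of the exchange complex of Eef1a1. Eef1a1 itself, which brings aminoacyl-tRNA to the ribosome, averaged 50.2 and 29.7 (0.76), and Eef2, which moves the ribosome along the messenger, 7.82 and 7.08 (0.14). Their summed level along the axis was 115 in the first and 32.1 in the last range. Of 7 other TOP messengers, 5 were higher, led by Nap1l1, a histone chaperone (1.7 and 0.125, log2 3.77), and Hnrnpa1, a splicing factor (3.29 and 0.691, 2.25). The lowest were Tpt1, a growth-associated protein (45.1 and 38.0, 0.25), and Btf3, a subunit of the nascent chain complex (8.34 and 6.97, 0.26).

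Other lists were less uniform. Of 41 initiation factor genes tested, 27 were higher and 3 lower, against 44% and 19.9% of all genes, and their summed level was 81.2 in dividing-like and 68.3 in enterocyte-like cells. Eif1b (0.629 and 0.131, log2 2.26) and Eif2b1 (1.01 and 0.266, 1.93) were highest, whereas Eif2s2, a subunit of the factor that carries the initiator tRNA, was lowest (2.78 and 10.0, -1.85), followed by Eif6 (2.31 and 3.72, -0.69). Of 77 mitochondrial ribosomal protein genes, 51 were higher and 1 was lower, beside the same shares of all genes. Mrps22 (0.710 and 0.163, log2 2.12) and Mrps11 (0.714 and 0.220, 1.699) were highest, and Mrps6 (0.619 and 1.81, -1.55) and Mrps21 (1.64 and 1.92, -0.22) lowest. Along the axis their sum was 69.2, 77.7, 76.4, 74.2 and 46.5, so unlike that of the cytosolic members it was below its first value in the last range alone. Fau, which encodes a ribosomal protein fused to a ubiquitin-like protein and falls outside the rule, averaged 23.6 and 25.1 (log2 -0.09).

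Genes known to set ribosomal protein output were measured at low levels. Of 10 regulators, 6 were at least 1.5-fold higher in dividing-like cells and 1 was lower, against 44% and 19.9% of all genes. Myc, a transcription factor for ribosome genes, averaged 0.614 in dividing-like and 0.168 in enterocyte-like cells (log2 1.87), and along the axis 0.840, 0.510, 0.433, 0.173 and 0.0565. Rps6kb1, the S6 kinase, averaged 0.552 and 0.182 (1.60), Mtor 0.190 and 0.185 (0.0411), and Rptor, a partner of mTOR, 0.0810 and 0.199 (-1.300).

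In the stroma of wt_colon the summed level spanned a narrower range in counts per cell than in the epithelium, but not as a fold. It averaged 1659 in the 1133 CBFs1-like cells (quartiles 1485 and 1844), 1501 in the 558 CBFs2-like cells (1266 and 1713) and 1428 in the 813 CTFs-like cells (1236 and 1628), so that the quartile ranges of the fibroblast classes overlapped. It was 1323 in the 590 blood endothelial-like cells, 1216 in the 889 smooth muscle-like cells, 1036 in the 118 pericyte-like cells and 632 in the 79 glia-like cells, where members took 7.90% of all counts. The 41 immune-like cells, which had passed a gate against CD45, averaged 1897. The 119 lymphatic endothelial-like cells averaged 1655, and a cluster of 373 cells led by haemoglobin genes averaged 1746. Both pan-epithelial and pan-fibroblast genes were carried by 91 of the lymphatic endothelial-like cells, 283 of the haemoglobin-led cells, 61 of the pericyte-like cells and 227 of the blood endothelial-like cells. The same held for 133 smooth muscle-like, 27 glia-like and 6 immune-like cells, and the part of such cells in these means was not tested.

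As a whole, epithelial and fibroblast cells of wt_colon differed little. The mean summed level was 1690 in 2360 epithelial cells and 1549 in 2504 fibroblasts (log2 ratio 0.13), and as a share of all counts it was 17.4% and 17.9%, with the direction turned. The spread within the epithelium, with quartiles at 1192 and 2233, was wider than the gap. Only 3 of 80 members were at least 1.5-fold higher in epithelial cells, against 47.3% of all genes tested, and none was lower, against 22%. Those higher were Rps26 (23.0 and 13.3, log2 0.78), Rps27l (4.68 and 2.88, 0.70) and Rplp0 (37.6 and 24.04, 0.65), of which only Rps26 passed on shares of all counts. Rpl41 (51.7 and 35.01, 0.56) and Rpl32 (31.3 and 21.7, 0.53) came next. At the other end were Rps23 (19.7 and 24.2, -0.29), Rpl10 (16.7 and 20.4, -0.29), Rpl13a (1.80 and 2.19, -0.28), Rpl35a (24.7 and 28.7, -0.22) and Rpl7 (17.98 and 20.9, -0.21).

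CTFs-like cells had lower levels than CBFs-like cells in both libraries, by small amounts. In wt_colon the mean summed level was 1428 for 813 CTFs-like cells and 1606 for 1691 CBFs-like cells (log2 ratio -0.17). In pdgfraegfp_colon it was 481 in 646 CTFs-like cells (quartiles 408 and 544) and 577 in 3592 CBFs-like cells (489 and 659), a log2 ratio of -0.26. No member was 1.5-fold lower in either library, against 14% of all genes in wt_colon and 8.62% in pdgfraegfp_colon. The median log2 ratio of members was -0.15 in wt_colon and -0.23 in pdgfraegfp_colon, and that of all genes was -0.0455 and 0.22. The direction was shared by most members, with 73 of 80 below 0 in wt_colon and 76 of 80 in pdgfraegfp_colon. The shares of all genes below 0 are not given here. In wt_colon, 279 CTFs-like cells and 266 CBFs-like cells carried both marker lists, and without them the log2 ratio was -0.21.

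The members were in a similar order in both libraries. Over the 80 members measured in both, Pearson's r between the log2 ratios was 0.77 and Spearman's rho was 0.72, a description across genes that are not independent replicates, and 71 members were below 0 in both. The lowest in each was Rps12, a small subunit protein, whose means in the CTFs-like class and the CBFs-like class were 19.9 and 29.0 in wt_colon (log2 -0.54) and 3.16 and 4.51 in pdgfraegfp_colon (-0.51). Rpl37a was among the lowest 5 in both, at 23.6 and 30.2 (-0.35) and at 10.9 and 14.9 (-0.45). Rps4x (23.9 and 31.9, -0.42), Rps20 (22.4 and 28.1, -0.33) and the stalk gene Rplp1 (32.0 and 39.5, -0.30) were the others in wt_colon. In pdgfraegfp_colon they were Rps29 (13.9 and 19.6, -0.49), Rps28 (9.38 and 12.9, -0.46) and Rpl35 (7.77 and 10.6, -0.45).

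A few members had ratios near or above 0. Rps16 was at 29.7 and 29.2 in wt_colon (0.0226) and at 9.59 and 9.58 in pdgfraegfp_colon (0.00132), and Rpl10 at 20.4 and 20.4 (0.00324) and at 9.42 and 9.47 (-0.00765). Rpl27a (28.7 and 26.5, 0.12), Rps27l (3.04 and 2.81, 0.12) and Rpl22l1 (7.66 and 7.40, 0.05) were the other highest ratios in wt_colon among members with a mean of at least 0.5. In pdgfraegfp_colon they were Rpl7 (4.70 and 4.49, 0.07), Rpl29 (3.25 and 3.25, 0.00026) and Rpl18 (3.26 and 3.30, -0.0213). Rpl7l1 was the only member at least 1.5-fold higher in CTFs-like cells of pdgfraegfp_colon (log2 0.68, against 19.4% of all genes), and was 0.28 in wt_colon.

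**Figure D4:**
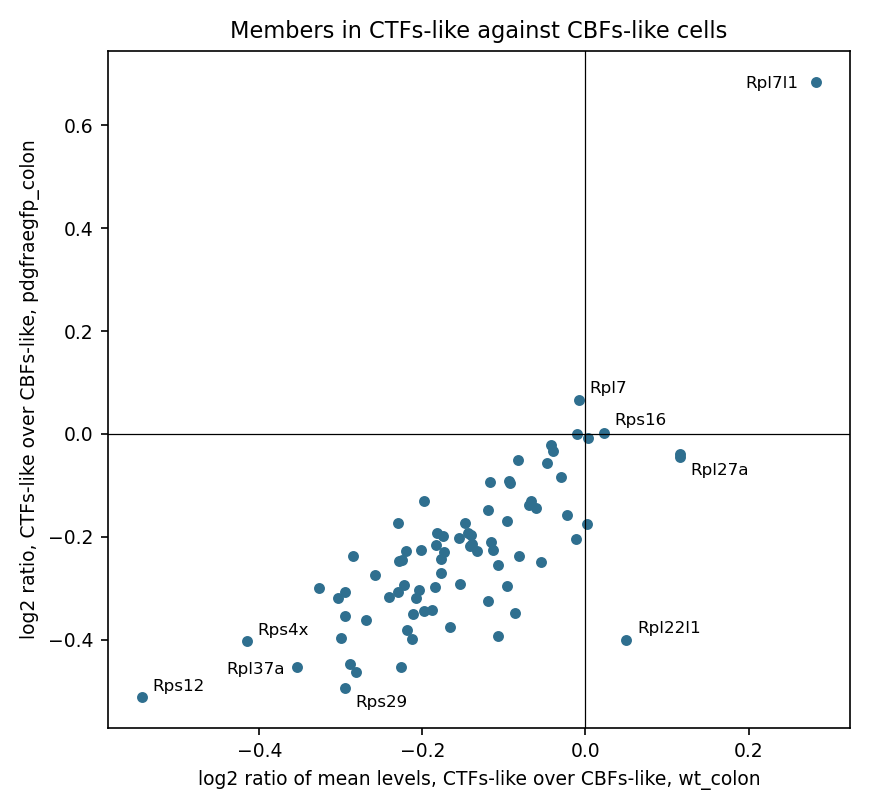
Log2 ratio of mean levels in CTFs-like over CBFs-like cells for 80 members, in wt_colon (horizontal) and pdgfraegfp_colon (vertical). Each point is a member; 71 lie below 0 in both libraries, Rps12 is lowest in both and Rpl7l1 highest.

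Clusters within a fibroblast class differed as much as the classes. In pdgfraegfp_colon the CBFs1-like class held a cluster led by Cxcl5 and Cxcl9 at 481 counts per cell (524 cells), one led by Wnt2 and C1qtnf3 at 592 (1046 cells) and one led by Sbno2 and Tnfaip3 at 608 (1170 cells). The CTFs-like class held clusters at 471 (521 cells led by Bmp3) and 521 (125 cells led by Il1rl1 and Nrg1), and the CBFs2-like cells averaged 576. On summed counts the Cxcl5-led cluster thus lay within the range of the CTFs-like clusters. As a share of all corrected counts it lay below both, at 13.2% against 14.7% in the Bmp3-led and 14.6% in the Il1rl1-led cluster. The Cxcl5-led cluster also had the most genes per cell, with a median of 1863 against 1267 in the Sbno2-led cluster, and the part of this in the result was not tested.

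Other fibroblast and muscle comparisons differed in size. CBFs1-like over CBFs2-like cells had a log2 ratio of 0.14 for the summed level in wt_colon and 0.00435 in pdgfraegfp_colon. No member was 1.5-fold higher in CBFs1-like cells of wt_colon, against 8.96% of all genes. There, 73 of 80 members were above 0, with a median of 0.15 against -0.0317 for all genes. In pdgfraegfp_colon 50 of 80 were above 0, with a median of 0.0360 against 0.22 for all genes. Smooth muscle-like cells had 1216 counts against 1606 in CBFs-like cells (log2 -0.40), and 9 of 80 members were at least 1.5-fold lower, against 17.5% of all genes. Of the 80 members, 76 were below 0, and the median log2 ratio was -0.37 for members and -0.0121 for all genes.

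Among the other lists, the fibroblast classes of the crypt top and bottom differed in single genes. In the same order, Tpt1 averaged 46.2 and 73.0 in wt_colon (log2 -0.66) and 4.98 and 8.38 in pdgfraegfp_colon (-0.75). Myc averaged 0.153 and 0.267 (-0.81), and 0.0820 and 0.200 (-1.29). Eif4e3, a cap-binding protein of the initiation list, was at 0.533 and 0.290 (0.88), and at 0.356 and 0.188 (0.92). Mrps6 was at 0.294 and 0.127 (1.21), and at 0.133 and 0.0638 (1.06). None of the 6 elongation factors passed 1.5-fold in either library. Of the assembly genes, none of 31 passed in wt_colon (median log2 ratio 0.00127), against 10.1% of all genes higher and 14% lower. In pdgfraegfp_colon 5 of 26 were higher (median 0.28) and none lower, against 19.4% and 8.62% of all genes. There, 9 of 73 mitochondrial ribosomal genes (median 0.28) and 5 of 41 initiation factors (0.28) were higher, and the median of all genes was 0.22. In wt_colon the counts higher in these lists were 1 of 77 (median 0.00097) and 1 of 43 (0.06). The dissociation-response genes summed to 99.3 and 87.0 in wt_colon and to 70.6 and 57.5 in pdgfraegfp_colon, and their part in the result was not tested.

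The paralogs were ordered over the classes differently from their core partners. Rpl22l1, a paralog of the RNA-binding protein Rpl22, averaged 11.5 counts in goblet-like, 10.6 in dividing-like, 10.2 in crypt base-like and 4.39 in enterocyte-like cells. Its log2 ratio of goblet-like over enterocyte-like cells was 1.39, the highest of the 80 members tested, against 0.35 for Rpl22 (10.3 and 8.05). In pericyte-like cells Rpl22l1 averaged 8.61, above the 7.49 of fibroblasts, and Rpl22 7.76 against 12.2. In CTFs-like over CBFs-like cells of pdgfraegfp_colon, Rpl22l1 was at 3.73 and 4.92 (log2 -0.40) and Rpl22 at 2.28 and 2.79 (-0.29).

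Rps27l was an epithelial paralog in level, at 5.38 counts in crypt base-like, 5.85 in dividing-like, 4.34 in goblet-like cells and 4.08 in the enterocyte-like class, and between 2.76 and 3.04 in the fibroblast classes. Rps27 was at 29.4, 21.9, 25.4 and 16.3 in the same epithelial classes and between 23.0 and 25.6 in the fibroblast classes. Smooth muscle-like cells had 3.78 counts of Rps27l, close to the enterocyte-like mean, and 18.5 of Rps27. Rpl7l1 was below 1 count in every epithelial class named, from 0.867 in dividing-like and 0.773 in crypt base-like to 0.297 in enterocyte-like cells, where Rpl7 went from 19.4 and 24.3 to 12.1. In pdgfraegfp_colon the CTFs-like mean of Rpl7l1 was 0.263 and the CBFs-like mean 0.164.

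**Figure D5:**
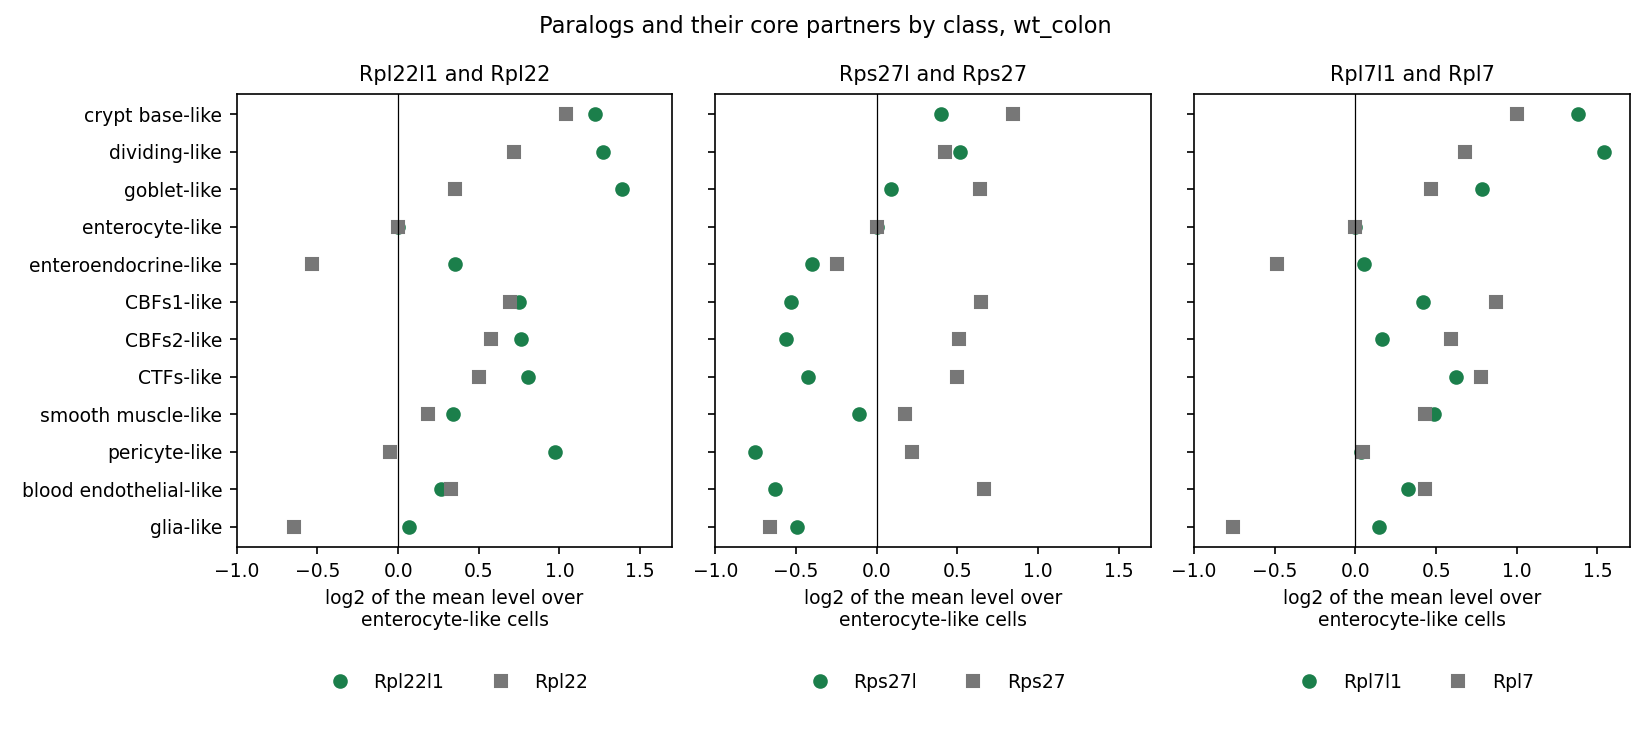
Log2 ratio of the mean level in each class of wt_colon to that in enterocyte-like cells, for Rpl22l1, Rps27l and Rpl7l1 (circles) and their core partners (squares). Rpl22l1 reaches 1.39 in goblet-like cells, where Rpl22 is at 0.35, and Rps27l lies below 0 in the fibroblast classes, where Rps27 lies above 0.

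The remaining paralogs were at the edge of detection. Rpl3l, known from striated muscle, had 23 corrected counts in 20 of 7495 cells of wt_colon and a mean below 0.05 in every class, the highest being 0.0424 in pericyte-like cells, while Rpl3 averaged 12.4 there. It was the only member below that level throughout. Rps4l, annotated as a pseudogene, was listed only in pdgfraegfp_colon. It averaged 0.0573 in the CTFs-like class and 0.0228 in the CBFs-like class, below the filter, against 6.58 and 8.69 for Rps4x.

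The balance of the subunits varied little between classes. The summed level of the large subunit divided by that of the small subunit was 1.22 in crypt base-like, 1.24 in dividing-like, 1.33 in enterocyte-like cells, and it reached 1.38 in the goblet-like class. In the stroma of wt_colon it was 1.24 in CBFs2-like, 1.26 in CBFs1-like, 1.31 in CTFs-like and 1.42 in glia-like cells. In pdgfraegfp_colon it was 1.34 in CBFs2-like, 1.36 in CBFs1-like and 1.42 in CTFs-like cells. In both libraries CTFs-like cells thus had the highest ratio of the fibroblast classes.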

How the data were processed

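Single-cell RNA-seq libraries of wt_colon (7495 cells) and pdgfraegfp_colon (4409 cells) were analysed separately. The authors aligned reads with Cell Ranger to mm10 and processed them in Seurat 3.1 with R 3.6.2. The deposited values were treated as scores: whole numbers taken, from the authors' stated use of SCTransform and the narrow totals, to be counts corrected for depth, although the tables do not name the correction. A second deposited table held their natural log after adding 1 (checked to 5e-15), so the original depth is unknown and no count model was used. Members and lists were chosen with earlier results of these data known.

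Cells were clustered on the log values in Seurat 5.3.0 (3000 variable features without the members and the lists, 30 principal components, resolution 0.45 in wt_colon and 0.3 in pdgfraegfp_colon). Epithelial cells of wt_colon were clustered again at 0.8. Exact principal components, rounded to 3 decimals, and exact neighbours were used. A class needed a mean log2 fold of 1 or more over a marker list and 3 passing markers. No cell type annotation by the authors was used here, so names may differ from theirs. Scrublet (scanpy 1.11.5) called 7 of 7495 and 5 of 4409 cells (0.0934% and 0.113%); in wt_colon it is taken not to have worked, and doublets were not removed. Level means the mean corrected count per cell. Log2 ratios of class means used no pseudocount, genes with a mean of the class means of at least 0.05, and 1.5-fold as the threshold. The ratio calculation was repeated separately on simulated Poisson counts, which did not test the calculation that gave the reported ratios.

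Named genes were, for dividing-like against enterocyte-like, CTFs-like against CBFs-like and epithelial against fibroblast cells, the 5 highest and 5 lowest ratios among members with a mean of at least 0.5, plus members named by role, paralogs with their partners, members below 0.05 in every class, and the 2 highest and 2 lowest genes of each list described. Members outside this rule that are named along the crypt axis, and the lists and genes quoted for CTFs-like against CBFs-like cells, were picked after their values were seen. Results for some genes are not reported here.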

Additional observations from a re-analysis of the deposited data

How the results depend on the processing

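No paired analysis was possible because each condition had 1 library. The alternatives were other scalings, gene sets, cell filters, clusterings, folds and floors. The filter on cells carrying both marker lists, the cell filters on the crypt axis, and another random seed or 30 neighbours for the epithelial clusters were chosen after seeing the data. The summed level of crypt base-like over enterocyte-like cells (log2 1.18) ranged from 0.73 to 1.38, that of the crypt axis (1.97) from 0.82 to 2.12, and CTFs-like over CBFs-like from -0.21 to -0.11 in wt_colon and from -0.31 to -0.22 in pdgfraegfp_colon, so these kept their direction. Without cells at or above 10% mitochondrial counts (518 of the 632 enterocyte-like cells) dividing-like over enterocyte-like dropped from 0.83 to 0.38, below 1.5-fold, the crypt axis to 0.82, and goblet-like over enterocyte-like from 0.576 to 0.12. Goblet-like over enterocyte-like rose past 1.5-fold with 15 principal components (0.74) and with 30 neighbours (0.77). As shares of all corrected counts, epithelial over fibroblast cells turned from 0.13 to -0.0420, and CBFs1-like over CBFs2-like cells of pdgfraegfp_colon from 0.00435 to -0.0954, and at another resolution to -0.0294. The cause was not tested. Without the cells carrying both lists the log2 ratios in wt_colon were 1.18 for crypt base-like, 0.83 for dividing-like and 0.57 for goblet-like over enterocyte-like cells, 0.10 for epithelial over fibroblast, -0.21 for CTFs-like and -0.44 for smooth muscle-like over CBFs-like cells.

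At 2-fold the count of members higher was 19 in dividing-like (29.6% of all genes), 4 in goblet-like (21.7%), 0 in epithelial (35.5%) and 0 in CTFs-like cells of pdgfraegfp_colon (6.92%), and 0 were lower in smooth muscle-like cells (9.86%). At the looser fold tried it was 73 in goblet-like (49.8%), 16 in epithelial (55.5%) and 3 in CBFs1-like cells of wt_colon (19.2%), and 51 were lower in smooth muscle-like (28.8%), 4 in CTFs-like cells of wt_colon (25.7%) and 20 in those of pdgfraegfp_colon (14.7%), of 80 members each time. On shares of all counts 1 was higher in epithelial cells. In CTFs-like cells of pdgfraegfp_colon 0 were higher at a floor of 0.5 and 2 with no filter. The other 178 values of comparisons stayed within the limits set for them. The original depth is unknown, so no counting interval is given.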
